A study of Mus musculus with 2 samples.

Results

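The smooth muscle contractile genes are 36 genes, of the 32285 in the files, that encode the actin, myosin, regulatory and anchoring proteins of smooth muscle and the transcription factors of their program. They were given as a list of gene symbols, and all 36 were found in the files. For the description they were put into 8 groups by role and into 18 genes with expression largely restricted to muscle and 18 broadly expressed genes. For each library, the UMIs of a gene in all cells of a class were added up and given per 1000000 UMIs of that class (CPM).

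The data are single-cell RNA-seq libraries of lung cells from 2 *Gli1 creER/+:Hhip flox/flox* mice at postnatal day 14. The control mouse received oil, and the *Gli1 HHIPCKO* mouse was given tamoxifen on the first 3 days of life (100 mg/kg each day). Both mice carry the Cre allele and the floxed alleles, recombination is limited to cells that express *Gli1* around the injections, and the strain is not given. Sorted CD45-/CD31- cells, stromal (CD326-) and epithelial, were mixed 3:1, so shares of cells between these compartments follow from the mix. The control library held 43291709 UMIs in 10999 cells, with a median of 3531 UMIs per cell, and the *Gli1 HHIPCKO* library 52338969 UMIs in 12350 cells, with a median of 3720.

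In smooth muscle, myosin II pulls on actin filaments after a rise in calcium leads myosin light chain kinase to phosphorylate the myosin light chains. SRF with its cofactor myocardin switches on many of the genes through CArG boxes. In the lung the program is used by airway and vascular smooth muscle, and more weakly by pericytes and by the myofibroblasts of the growing alveoli, while *Hhip* encodes a protein that binds and restrains Hedgehog ligands.

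After filtering, 10917 control and 12115 *Gli1 HHIPCKO* cells remained, and clusters were named from marker genes with the 36 genes and 96 further contraction genes held out of clustering and naming. Myofibroblast-like cells numbered 2760 in the control and 2594 in the *Gli1 HHIPCKO* library. They comprised alveolar myofibroblast (ALMF)-like cells, 1031 and 197, ductal myofibroblast (DMF)-like cells, 1231 and 946, and cells that both marker lists fitted and that were left unresolved, 498 and 1451. DMF-like cells came mostly from cluster 7 in the control (1218 of its 1251 cells) and from cluster 13 in the *Gli1 HHIPCKO* library (913 of its 926 cells). ALMF-like cells were cluster 3, of which 1031 of 1228 cells were control cells. Each of these clusters is mostly of 1 library, so a cell state and a library cannot be told apart there. The peribronchial and airway smooth muscle-like class held 156 and 342 cells and the vascular smooth muscle-like class 405 and 430. Clusters that did not pass the naming rules were left out, among them 138 control and 420 *Gli1 HHIPCKO* mesenchymal cells.

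*Hhip* itself served as a check of the labels. In myofibroblast-like cells it was at 1144 CPM in the control and 284 CPM in the *Gli1 HHIPCKO* library (log2 ratio −2.01), and in the peribronchial and airway smooth muscle-like class at 2366 and 678 CPM (log2 ratio −1.80). Within the myofibroblasts the log2 ratio was −2.30 in DMF-like cells. ALMF-like cells differed less, with 210 and 137 CPM (−0.61, −0.96 to −0.29). There, 29.5% of control and 29.9% of *Gli1 HHIPCKO* cells held an *Hhip* UMI. Which part of the transcript the tags cover is not in the files. The series text and the published methods name a 5′ kit and the sample labels a 3′ kit, and the files do not settle which was used. A UMI of *Xist*, the transcript of the inactive X chromosome, was found in 12 of 10917 control cells (0.110%) and 6866 of 12115 *Gli1 HHIPCKO* cells (56.7%), the difference of a male and a female. Sex and treatment cannot be told apart for any gene. The libraries shared 193 barcodes, of which 0 had equal UMI totals. With 1 mouse per group no test was made. Intervals are exact 95% intervals, Poisson for levels and binomial for ratios and shares, and cover counting error only.

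The summed level of the 18 restricted genes ordered the classes. In control cells it was 52759 CPM (52169.6 to 53353) in the peribronchial and airway smooth muscle-like class and 43991 CPM (43613 to 44370.5) in the vascular class. Among the myofibroblasts it was 5899.6 CPM in ALMF-like and 5254 CPM in DMF-like control cells, near the 4879 CPM of pericyte-like cells. Alveolar fibroblast-like cells had 3124 CPM, mesothelial-like cells 2925 CPM and adventitial fibroblast-like cells 1916 CPM. AT2-like cells, an epithelial class taken as background, had 100.4 CPM in the control and 109 CPM in the *Gli1 HHIPCKO* library.

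Between the libraries the sum moved in opposite directions in the classes. DMF-like cells were at 5254 CPM (5176 to 5333) in the control and 9424 CPM (9312 to 9536) in the *Gli1 HHIPCKO* library, a log2 ratio of 0.84 (0.82 to 0.87). ALMF-like cells went the other way, from 5899.6 to 4474 CPM (log2 ratio −0.40, −0.46 to −0.34). Unresolved myofibroblast-like cells had a log2 ratio of 0.08. In myofibroblast-like cells as a whole, which do not depend on this split, the sum was 5773 and 7545 CPM (0.39, 0.37 to 0.40). The *Gli1 HHIPCKO* level was 31716 CPM in the peribronchial and airway smooth muscle-like class (log2 ratio −0.73, −0.76 to −0.71) and 34728 CPM in the vascular class (−0.34, −0.36 to −0.32). Alveolar fibroblast-like cells had a log2 ratio of 0.38, adventitial fibroblast-like cells 0.18, pericyte-like cells −0.29 and mesothelial-like cells −1.14. The 2 muscle classes stayed above the other named stromal classes in both libraries, with a narrower distance to the DMF-like cells in the *Gli1 HHIPCKO* mouse. Under the settings reported, the peribronchial class was highest in the control and the vascular class in the *Gli1 HHIPCKO* library. In the 18 broad genes the log2 ratio of the sum was −0.02 in DMF-like, −0.36 in ALMF-like, −0.38 in peribronchial and airway smooth muscle-like and −0.17 in vascular smooth muscle-like cells.

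**Figure D1:**
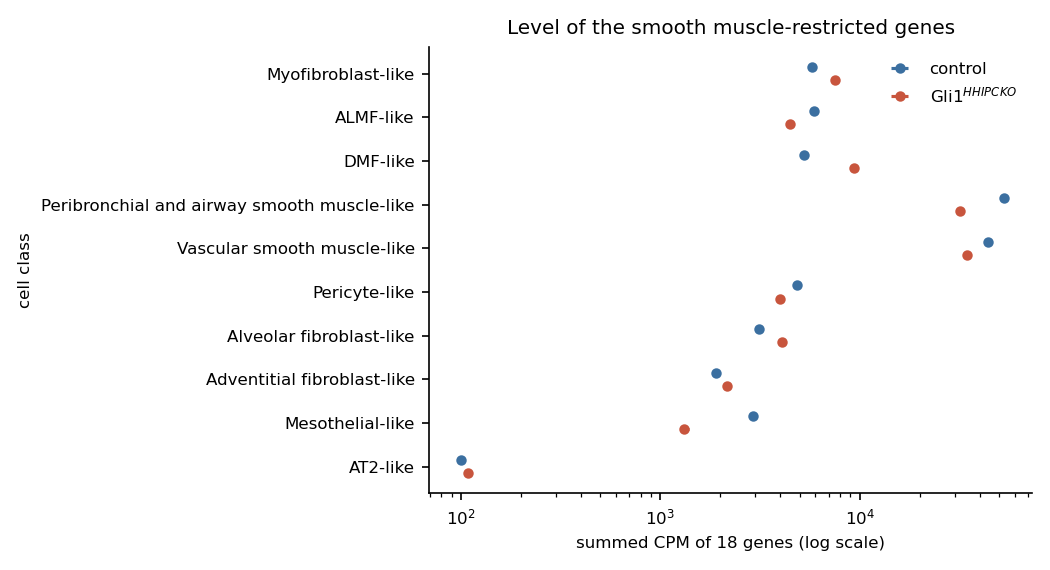
Summed CPM of the 18 smooth muscle-restricted genes (log axis) by cell class in the control and the *Gli1 HHIPCKO* library, with exact 95% Poisson intervals that are mostly narrower than the points. DMF-like cells are higher and peribronchial and airway smooth muscle-like cells lower in the *Gli1 HHIPCKO* library, and AT2-like cells mark the background near 100.4 CPM.

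A gene counted as measured in a class if both libraries together gave 50 UMIs or more and 10% or more of the cells held one in the control or in the *Gli1 HHIPCKO* library. It was counted as higher or lower from a 1.5-fold difference. In DMF-like cells, 10 of 32 measured members were higher in the *Gli1 HHIPCKO* library, against 6.61% of all 5385 measured genes, and 1 was lower, against 4.83%. Of the 15 measured restricted genes 9 were higher, with a median log2 ratio of 1.08 beside 0.03 over all genes, while the 17 broad genes had a median of 0.13. Of these 9, *Actg2*, *Cnn1*, *Lmod1*, *Synpo2* and *Myocd* passed the minimum share of cells through the *Gli1 HHIPCKO* library only, a rule that favors genes that differ between the libraries. The other 4, *Acta2*, *Myh11*, *Tagln* and *Tpm2*, passed it in both. Over the 9 restricted genes that passed it in both libraries the median was 0.57, lower than the 1.08 over all 15. Of all members that passed it in both libraries 5 of 26 were higher, beside 188 of 4463 genes. Their median log2 ratio was 0.22, beside −0.002 over those genes.

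The peribronchial and airway smooth muscle-like class gave the reverse picture. There 0 of 35 measured members were higher, against 11.7% of all 5464 genes, and 11 were lower, against 7.27%. The median log2 ratio was −0.57 over 17 restricted and −0.33 over 18 broad genes, beside 0.07 over all genes. *Tnnt2* and *Srf* passed the minimum through the control only. Of the members that passed it in both libraries 9 of 33 were lower, beside 230 of 4686 genes. In vascular smooth muscle-like cells 0 of 34 members were higher (7.44% of all genes) and 6 were lower (4.41% of all genes), with a member median of −0.17 beside 0.04.

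In myofibroblast-like cells as a whole, 7 of 29 members were higher (5.05% of all genes) and 2 lower (4.19%). Of the 7, *Lmod1* and *Synpo2* passed the minimum through the *Gli1 HHIPCKO* library only. ALMF-like cells had 1 of 26 higher (8.34%) and 3 lower (5.65%), with 23 members below a ratio of 1 and a member median of −0.28 beside 0.04. The 1 higher member, *Hspb1*, passed the minimum through the *Gli1 HHIPCKO* library only. Pericyte-like cells had 0 of 24 higher (5.63%) and 3 lower (2.92%). Alveolar fibroblast-like cells had 3 of 25 higher (5.91%) and 0 lower (4.57%), and adventitial fibroblast-like cells 2 of 25 higher (6.16%) and 1 lower (3.83%). In the adventitial class the higher *Myh11* passed through the *Gli1 HHIPCKO* library only and the lower *Srf* through the control only. In mesothelial-like cells 0 of 27 were higher (8.89%) and 8 were lower (7.47%), *Myh11* and *Des* of these measured through the control only.

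**Figure D2:**
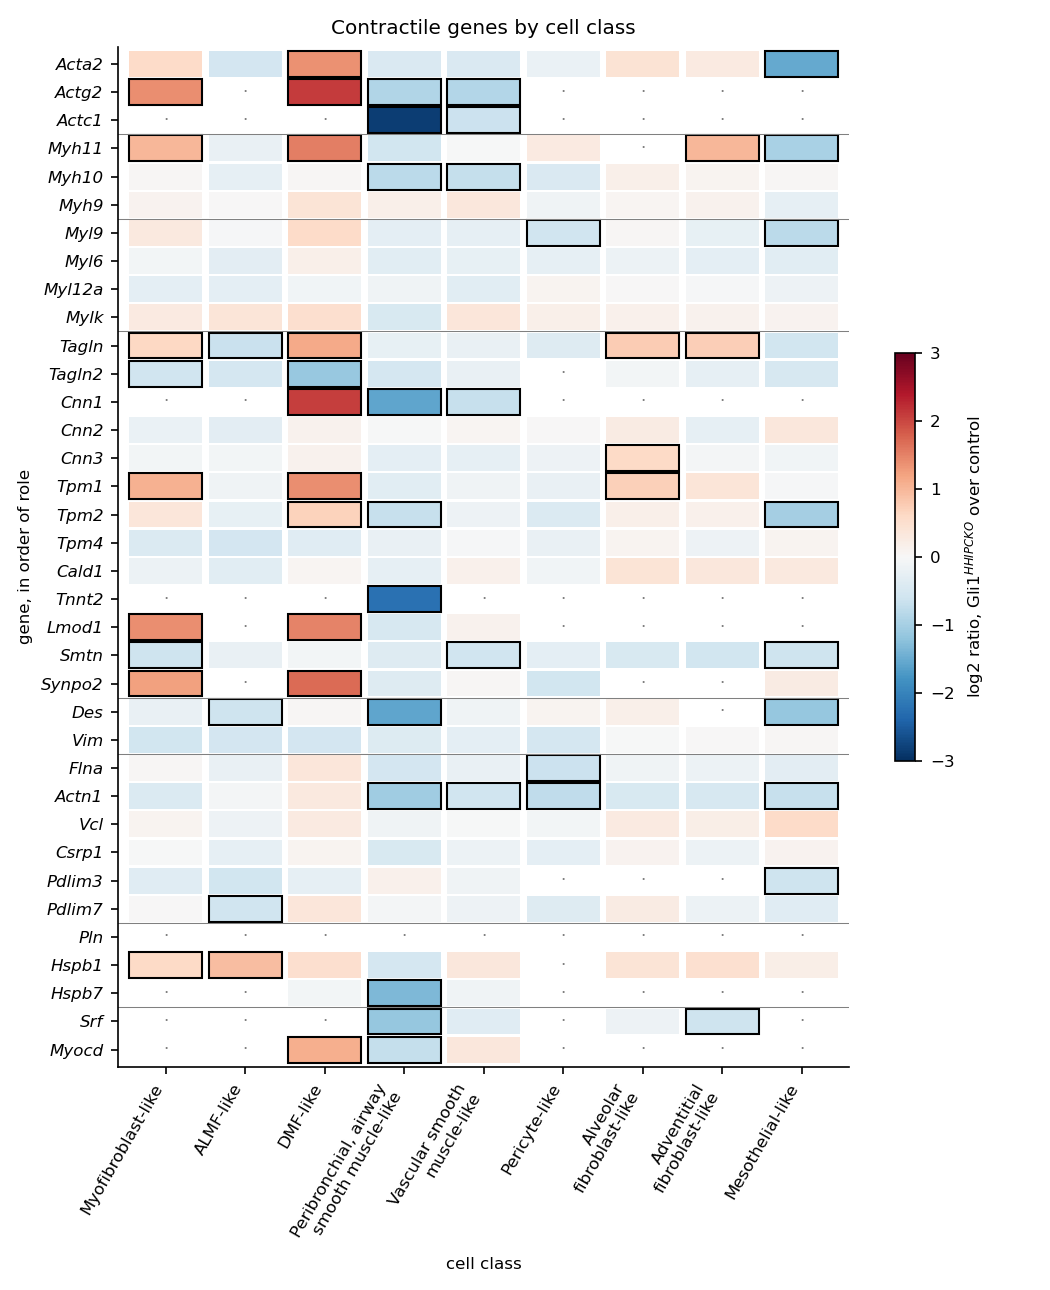
Log2 ratio (color) of each of the 36 genes, in order of role, in 9 cell classes. Black frames mark differences of at least 1.5-fold and dots mark genes not measured in a class, and the frames are mostly red in DMF-like cells and blue in the peribronchial and airway smooth muscle-like class.

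These classes rest on the clustering, and the sizes of the myofibroblast classes changed with it. With doublets left out the ALMF-like class held 968 control and 875 *Gli1 HHIPCKO* cells, and with a stricter cell filter the DMF-like class held 1056 and 1684. No DMF-like and no peribronchial class was named in the *Gli1 HHIPCKO* library when each library was clustered on its own. At a resolution of 0.5 the DMF-like class held only 31 *Gli1 HHIPCKO* cells, with 9 members higher and 6 lower, and the peribronchial class was not formed. Cells that both rounds of clustering named alike, an alternative chosen after seeing the data, numbered 129 and 230 in the peribronchial and airway smooth muscle-like class and gave 11 lower members again, with a restricted sum of 58965 and 36171 CPM. The latter lies above the 34728 CPM of the vascular class under the settings reported. Which muscle class is highest in the *Gli1 HHIPCKO* library may thus depend on the cells included. Under the settings reported, the summed 10 DMF markers in the peribronchial and airway smooth muscle-like class were 4785 CPM in the control and 7006 CPM in the *Gli1 HHIPCKO* library. Of these *Aspn* was the most abundant, and the class's own 10 markers were at 3411 and 3439 CPM. Pericyte markers went from 1589 to 955 CPM there and vascular smooth muscle markers from 396 to 182 CPM, beside the lower contractile genes.

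Marker sums differed in the other classes as well. In DMF-like cells the 10 peribronchial and airway smooth muscle markers went from 802 to 1294 CPM and the 10 DMF markers from 7969 to 10537.9 CPM, the same side as the contractile genes. In ALMF-like cells alveolar fibroblast markers went from 278 to 507 CPM and ALMF markers from 6451 to 7758 CPM, beside the lower contractile genes. Mitochondrial UMIs made a higher share in the *Gli1 HHIPCKO* library in each of the 9 classes, 0.463% and 0.779% in DMF-like and 0.632% and 0.916% in peribronchial and airway smooth muscle-like cells. In vascular smooth muscle-like cells pericyte markers were at 2735 and 3347 CPM, above the 1695 and 1891 CPM of the class's own markers, and red cell markers at 444 and 2501 CPM. Whether the makeup of a class has a part in its contractile genes was not tested.

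Among the actins, which form the thin filaments, all 3 muscle isoforms were measured in the muscle classes. Their transcripts share long near-identical stretches, so their counts are uncertain where reads could have been assigned to either. *Acta2*, the alpha actin of vascular smooth muscle, was highest of the 9 classes in vascular smooth muscle-like cells, at 17422 CPM in the control and 12704 CPM in the *Gli1 HHIPCKO* library (log2 ratio −0.46, −0.49 to −0.43). The ratio was the same to 2 decimals in the peribronchial and airway smooth muscle-like class, −0.46 (−0.51 to −0.42), and neither reached 1.5-fold. Against these, *Acta2* in DMF-like cells was higher in the *Gli1 HHIPCKO* library, with 839 CPM (808 to 871) and 2176 CPM (2122 to 2230.0) and a log2 ratio of 1.37. ALMF-like cells were at 1294 and 881 CPM (log2 ratio −0.55), so the order of both myofibroblast classes was exchanged between the libraries.

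*Actg2*, the gamma actin of visceral smooth muscle, increased in DMF-like cells from 49.6 to 213 CPM (log2 ratio 2.10, 1.85 to 2.36). It fell in the peribronchial and airway smooth muscle-like class from 2036 to 1085 CPM (log2 ratio −0.91) and in vascular smooth muscle-like cells from 1521 to 824 CPM (−0.88). Even after the rise, DMF-like cells held less *Actg2* than either muscle class. After thinning each cell to 2000 UMIs, 8.11% (6.44 to 10.0) of control and 31.8% (28.6 to 35.1) of *Gli1 HHIPCKO* DMF-like cells had an *Actg2* UMI, with 294 and 138 shallower cells left out. Without thinning the shares were 8.94% and 37.5%, and in AT2-like cells 0.743% and 0.921%, at median depths of 2535 and 2935.5 UMIs in DMF-like and 4649 and 5620 UMIs in AT2-like cells.

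*Actc1*, the actin of heart muscle that smooth muscle also transcribes, had the lowest log2 ratio of the 35 members measured in the peribronchial and airway smooth muscle-like class. The level there was 9757 CPM (9505 to 10015) in the control and 1347 CPM (1277 to 1419.8) in the *Gli1 HHIPCKO* library (log2 ratio −2.86, −2.94 to −2.77). Cells with a UMI made up 78.2% and 24.9%, and after thinning 74.1% (65.8 to 81.2) and 20.6% (15.9 to 25.9), with 21 and 70 cells left out. In AT2-like cells 2.85% and 0.888% of cells had one, at higher depth, so the shares of the class lie far above the background in both libraries. The size of the difference depends on the cells included. At a resolution of 2, with 131 and 77 cells in the class, the log2 ratio was −1.47, and without the 5% of cells richest in restricted genes it was −4.03. Vascular smooth muscle-like cells had 3623 and 2315 CPM (log2 ratio −0.65), so the highest *Actc1* level of the 9 classes was the peribronchial one in the control and the vascular one in the *Gli1 HHIPCKO* library. *Actc1* was not measured in the other 7 of these classes. Below the minimum, its level was lower in the *Gli1 HHIPCKO* library in further classes. These were pericyte-like (111 and 29.5 CPM), alveolar fibroblast-like (43.8 and 14.6 CPM) and mesothelial-like cells (468 and 4.04 CPM). In myofibroblast-like cells as a whole its level was 29.1 and 13.7 CPM, in DMF-like cells 38.0 and 21.7 CPM. The other levels are left out. Lower *Actc1* was thus not particular to the muscle classes. Outside the 9 classes, 27 and 10 cardiomyocyte-like cells had 23199 and 15483 CPM, and AT2-like cells had 7.34 and 4.05 CPM of *Actc1*. In the peribronchial and airway smooth muscle-like class the 10 cardiomyocyte markers summed to 32.7 CPM in the control and 36.7 CPM in the *Gli1 HHIPCKO* library. Whether heart muscle RNA has a part in the difference of *Actc1* was not tested.

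Of the myosin heavy chains, *Myh11* encodes the smooth muscle isoform and *Myh9* and *Myh10* the nonmuscle isoforms IIA and IIB. *Myh11* in DMF-like cells was at 196 CPM in the control and 568 CPM in the *Gli1 HHIPCKO* library (log2 ratio 1.53, 1.40 to 1.66). It was at 2999 and 2016 CPM in the peribronchial and airway smooth muscle-like class (log2 ratio −0.57, just short of 1.5-fold) and at 1966 and 1945 CPM in vascular smooth muscle-like cells (−0.02). In the vascular class *Myh11* was thus level beside lower *Actg2* and *Actc1*. *Myh11* also rose in adventitial fibroblast-like cells, from 37.6 to 75.3 CPM, where it passed the minimum share through the *Gli1 HHIPCKO* library only.

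*Myh10* fell in both muscle classes, from 529 to 301 CPM (log2 ratio −0.82) in the peribronchial and airway and from 456 to 277 CPM (−0.72) in the vascular class. In DMF-like cells it was at 389.9 and 399 CPM, and its highest level of the 9 classes was in alveolar fibroblast-like cells, 600.1 and 679 CPM. *Myh9* was highest of the 9 in pericyte-like cells (1539 and 1414 CPM) and stayed within 1.5-fold in all 9 classes, with log2 ratios of 0.18 in the peribronchial and airway, 0.34 in the vascular and 0.40 in the DMF-like class. The 3 isoforms thus had different profiles across the classes.

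*Myl9*, *Myl6* and *Myl12a* encode light chains of myosin, and *Mylk* the kinase that phosphorylates the regulatory ones. *Myl12a* has a near copy, *Myl12b*, so its counts are uncertain. *Myl9* was at 548 and 810.3 CPM in DMF-like cells (log2 ratio 0.57, short of 1.5-fold) and fell in pericyte-like cells from 1384 to 914 CPM (−0.60). *Mylk* was highest of the 9 classes in the peribronchial and airway smooth muscle-like one, at 1958 CPM in the control and 1395 CPM in the *Gli1 HHIPCKO* library (log2 ratio −0.49). The vascular class held less of it, 575 and 735 CPM (0.35), and alveolar fibroblast-like cells 829 and 928 CPM. *Myl6*, an essential light chain of muscle and nonmuscle myosin, ran from −0.35 in mesothelial-like to 0.17 in DMF-like cells, and *Myl12a* lay between −0.34 and 0.08.

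The thin filament regulators were the largest role, with 13 genes, and held 6 of the 10 higher members of DMF-like cells, where 6.61% of all genes were higher. Of these 6, *Cnn1*, *Lmod1* and *Synpo2* passed the minimum share of cells through the *Gli1 HHIPCKO* library only. *Tagln* (transgelin, an actin bundler) rose in DMF-like cells, from 1457 to 3193 CPM (log2 ratio 1.13). It was lower in ALMF-like cells, 1708 and 1067 CPM (−0.68), and higher in alveolar fibroblast-like cells, 1109 and 1872 CPM (0.76). Adventitial fibroblast-like cells also had more of it in the *Gli1 HHIPCKO* library (344 and 575 CPM), while the muscle classes differed by less than 1.5-fold. The paralogue *Tagln2* went against *Tagln* in DMF-like cells, where it fell from 851 to 388 CPM (log2 ratio −1.13, −1.23 to −1.03), the only lower member of that class.

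*Cnn1*, the calponin of differentiated smooth muscle, which binds actin and slows the myosin ATPase, moved apart in the classes. It fell in the peribronchial and airway smooth muscle-like class from 1906 CPM to 633 CPM (log2 ratio −1.59, −1.73 to −1.45) and in the vascular class from 740.0 to 456 CPM (−0.70). DMF-like cells went from 10.7 to 44.8 CPM (log2 ratio 2.07, 1.52 to 2.65), still a small level. Thinned shares of cells with a *Cnn1* UMI were 75.6% (67.4 to 82.5) and 48.2% (42.1 to 54.3) in the peribronchial and airway class, from 80.8% and 57.0% without thinning, and AT2-like cells had 0.743% and 0.461%. *Cnn2* and *Cnn3*, the other calponins of the list, stayed within 1.5-fold in all 9 classes except a higher *Cnn3* in alveolar fibroblast-like cells, 159 and 239 CPM. *Cnn3* was highest of the 9 classes in vascular smooth muscle-like cells, 572 and 474 CPM.

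The tropomyosins lie along the actin filament and set where myosin can bind. *Tpm1* in DMF-like cells went from 643 to 1696 CPM (log2 ratio 1.40), the only broad gene higher in that class. *Tpm1* was also higher in unresolved myofibroblast-like cells, 621 and 1164 CPM (0.91), and in alveolar fibroblast-like cells, 859 and 1422 CPM (0.73), but not in ALMF-like cells (−0.13). *Tpm2* rose in DMF-like cells from 244 to 393 CPM (log2 ratio 0.69, 0.56 to 0.82) and fell in the peribronchial and airway smooth muscle-like class from 2439 to 1502 CPM (−0.70, −0.80 to −0.59). *Tpm4*, a tropomyosin of nonmuscle cells, did not reach 1.5-fold in any of the 9 classes, and at a resolution of 0.5 its ratio in DMF-like cells turned from −0.36 to 0.31.

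*Lmod1*, a leiomodin that nucleates actin filaments, rose in DMF-like cells from 32.3 to 89.9 CPM (log2 ratio 1.48, 1.15 to 1.82). *Synpo2*, which binds actin and alpha-actinin, did so from 24.7 to 79.9 CPM (1.70, 1.33 to 2.08). Both were also higher in unresolved myofibroblast-like cells, by 0.79 and 0.78 on the log2 scale, measured there through the *Gli1 HHIPCKO* library only. In the muscle classes both were within 1.5-fold, and *Synpo2* in the peribronchial and airway class turned from −0.40 to 0.13 at a resolution of 2. *Smtn* (smoothelin) kept to 107 and 101 CPM in DMF-like cells and fell in vascular smooth muscle-like cells from 202 to 135 CPM (−0.59). In DMF-like cells its ratio was −2.42 at a resolution of 0.5. In myofibroblast-like cells as a whole *Smtn* was lower, 179.7 and 117 CPM (−0.62). ALMF-like cells, with 271 and 231 CPM, held more of it than DMF-like cells in both libraries.

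*Cald1* (caldesmon, which holds actomyosin back) stayed within 1.5-fold in all 9 classes, with 1210.0 and 1011 CPM in the peribronchial and airway and 1365 and 1517 CPM in the vascular class. *Tnnt2*, the cardiac troponin T, was measured in 1 of the 9 classes, the peribronchial and airway smooth muscle-like one, and at far higher levels in cardiomyocyte-like cells, 7591 and 6654 CPM. In the peribronchial and airway class it was at 274 CPM in the control and 58.0 CPM in the *Gli1 HHIPCKO* library (log2 ratio −2.24, −2.69 to −1.80), and at a resolution of 2 the ratio was −0.92. A UMI was found in 30.1% and 7.89% of cells, and after thinning in 22.2% and 4.04%, against 0.178% and 0.0987% of AT2-like cells. So both cardiac isoforms of the list, *Actc1* and *Tnnt2*, had the 2 lowest log2 ratios of the members measured in this class, *Tnnt2* having passed the minimum through the control only.

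Desmin (*Des*) and vimentin (*Vim*) form the intermediate filaments of muscle and of mesenchymal cells. *Des* fell in the peribronchial and airway smooth muscle-like class from 2701 CPM to 897 CPM (log2 ratio −1.59, −1.71 to −1.47). In the vascular class it was 969 and 880.3 CPM, so that the muscle classes came close to each other in the *Gli1 HHIPCKO* library. DMF-like cells had 460.2 and 473 CPM, with an interval of the log2 ratio that includes 0 (−0.07 to 0.15), while ALMF-like cells fell from 355 to 229.8 CPM (−0.63). *Vim* was at 4635 and 3143 CPM in DMF-like (−0.56) and at 4706 and 3212 CPM in ALMF-like cells (−0.55), both short of 1.5-fold. In the alveolar, adventitial and mesothelial classes its ratio lay between −0.02 and 0.03.

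Filamin A (*Flna*), alpha-actinin-1 (*Actn1*), vinculin (*Vcl*), *Csrp1*, *Pdlim3* and *Pdlim7* crosslink actin or anchor it to dense bodies and adhesions. *Actn1* fell in both muscle classes, from 707 to 339 CPM (log2 ratio −1.06) in the peribronchial and airway and from 716 to 470.1 CPM (−0.61) in the vascular class. It also fell in pericyte-like cells, from 173 to 103 CPM (−0.75), where *Flna* went from 1271 to 816 CPM (−0.64). *Vcl* was within 1.5-fold in all 9 classes, and so was *Csrp1*. *Pdlim3* was the only restricted gene above a ratio of 1 in the peribronchial and airway class, 1248 and 1396 CPM (0.16, 0.03 to 0.29), and was on the lower side in DMF-like cells (−0.27). *Pdlim7* fell in ALMF-like cells from 252 to 166 CPM, and in DMF-like cells its ratio of 0.35 turned to −0.82 at a resolution of 0.5.

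Phospholamban (*Pln*), which restrains the calcium pump of the sarcoplasmic reticulum, was not measured in any class, with 31.0 and 5.80 CPM in the peribronchial and airway smooth muscle-like class. *Hspb7*, a small heat shock protein of heart and muscle, fell in that class from 228 to 89.9 CPM (log2 ratio −1.34, −1.74 to −0.95) and was at 37.4 and 35.5 CPM in DMF-like cells. *Hspb1*, a chaperone that binds actin, was highest of the 9 classes in mesothelial-like cells (811 and 928 CPM). It rose in ALMF-like cells from 27.7 to 52.7 CPM (0.93), where it passed the minimum through the *Gli1 HHIPCKO* library only and turned to −0.26 with each library clustered on its own. In the peribronchial and airway class its ratio turned from −0.53 to 0.27 at a resolution of 2, and in DMF-like cells from 0.50 to −1.12 at a resolution of 0.5. A separate list of 8 heat shock genes had a lower sum in the *Gli1 HHIPCKO* library in each of the 9 classes and in AT2-like cells. Its log2 ratio was −0.55 in the peribronchial and airway, −0.42 in the DMF-like and −0.38 in the AT2-like class, and its part in the results was not tested.

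The transcription factors were sparse. *Myocd* (myocardin, the muscle cofactor of SRF) rose in DMF-like cells from 18.9 to 39.9 CPM (log2 ratio 1.08, 0.62 to 1.55). It fell in the peribronchial and airway smooth muscle-like class from 134 to 82.1 CPM (−0.71, −1.17 to −0.25). In the vascular class it was at 72.0 and 91.6 CPM (0.35, −0.07 to 0.77), a difference within counting error. *Srf* went from 58.6 to 26.1 CPM in the peribronchial and airway class (−1.17, −1.95 to −0.40), with few counts, and was lower in adventitial fibroblast-like cells, 39.5 and 25.9 CPM (−0.61). Both classes measured it through the control only. *Myocd* moved in the direction of the restricted sum in the DMF-like and the peribronchial and airway class, which is a description of 2 classes and not a test. In the vascular class the restricted sum was lower (log2 ratio −0.34) and *Myocd* was not. In DMF-like cells *Myocd* passed the minimum share through the *Gli1 HHIPCKO* library only.

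**Figure D3:**
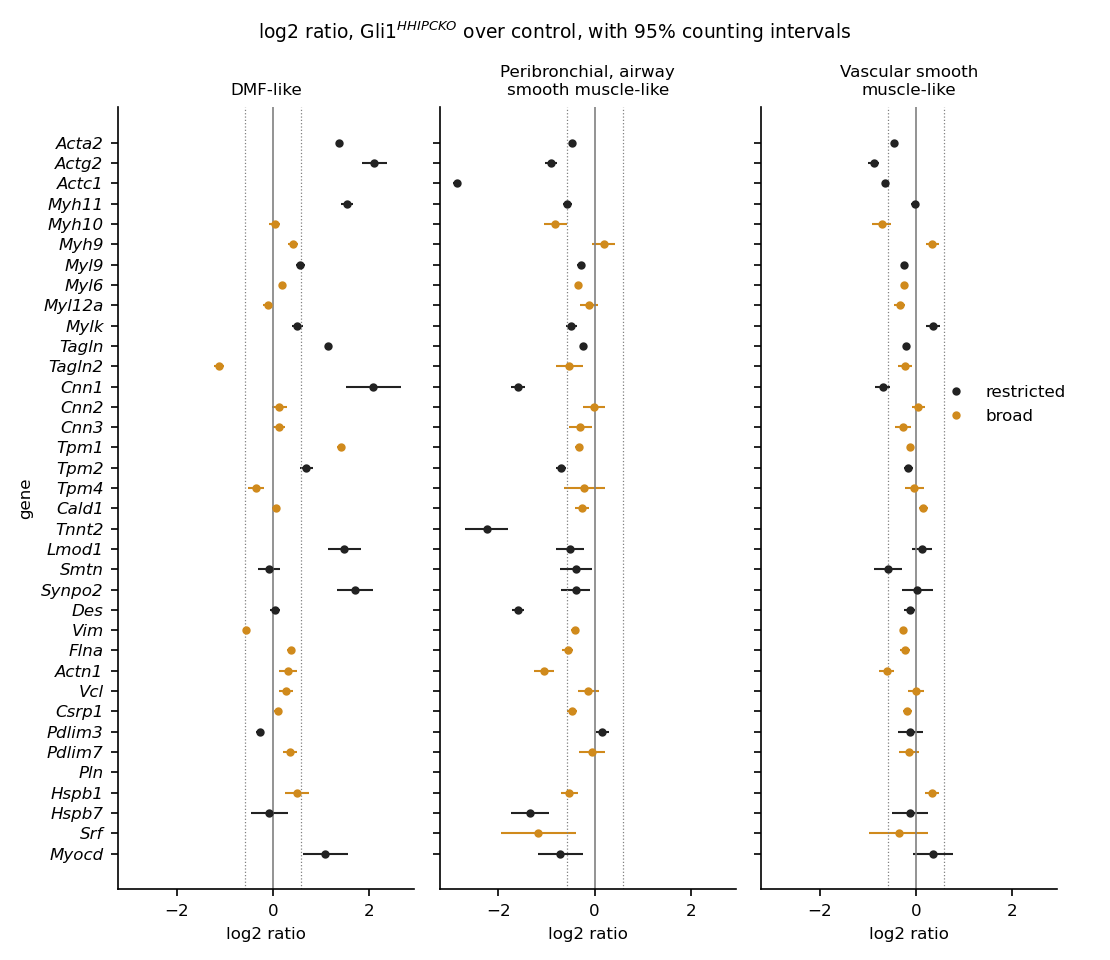
Log2 ratio (*Gli1 HHIPCKO* over control) of each member with its 95% binomial interval in DMF-like, peribronchial and airway smooth muscle-like and vascular smooth muscle-like cells. Points are restricted (black) or broad (orange) genes and dotted lines mark 1.5-fold, with *Actg2* at 2.10 in DMF-like and *Actc1* at −2.86 in peribronchial and airway smooth muscle-like cells.

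Mesothelial-like cells need care. Their 8 lower members include *Acta2*, 724 and 249 CPM (log2 ratio −1.54), *Des* (−1.17) and *Tpm2* (−1.02), but the 10% of cells with most restricted UMIs held 79.3% of them in the control and 60.1% in the *Gli1 HHIPCKO* library. *Actc1*, not measured by its share of cells, alone made 468 and 4.04 CPM of the sum. As a ratio of thinned shares of cells, *Acta2* turned to 0.31, *Myh11* to 0.0875 and *Myl9* to 0.00503. The lower sums in this class thus rest on few cells. Other markers differed there too, with cycling markers at 424 and 66.6 CPM, red cell markers at 369 and 3358 CPM and alveolar fibroblast markers at 681 and 1667 CPM.

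The sums were also followed cell by cell. Thinned to 2000 UMIs, DMF-like cells had a median of 8 restricted UMIs in the control and 16 in the *Gli1 HHIPCKO* library, and 10.9% and 37.1% of cells held at least 20. ALMF-like cells had medians of 9 and 7. In the peribronchial and airway smooth muscle-like class the median was 85 and 57 UMIs, and cells with at least 100 fell from 43.0% to 12.9%. Vascular smooth muscle-like cells had medians of 62 and 57, with 36.7% and 26.9% of cells at 100 or more but 82.4% and 87.1% at 20 or more. In the vascular class the lower level was thus seen at the upper end of the distribution and not at its lower end.

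**Figure D4:**
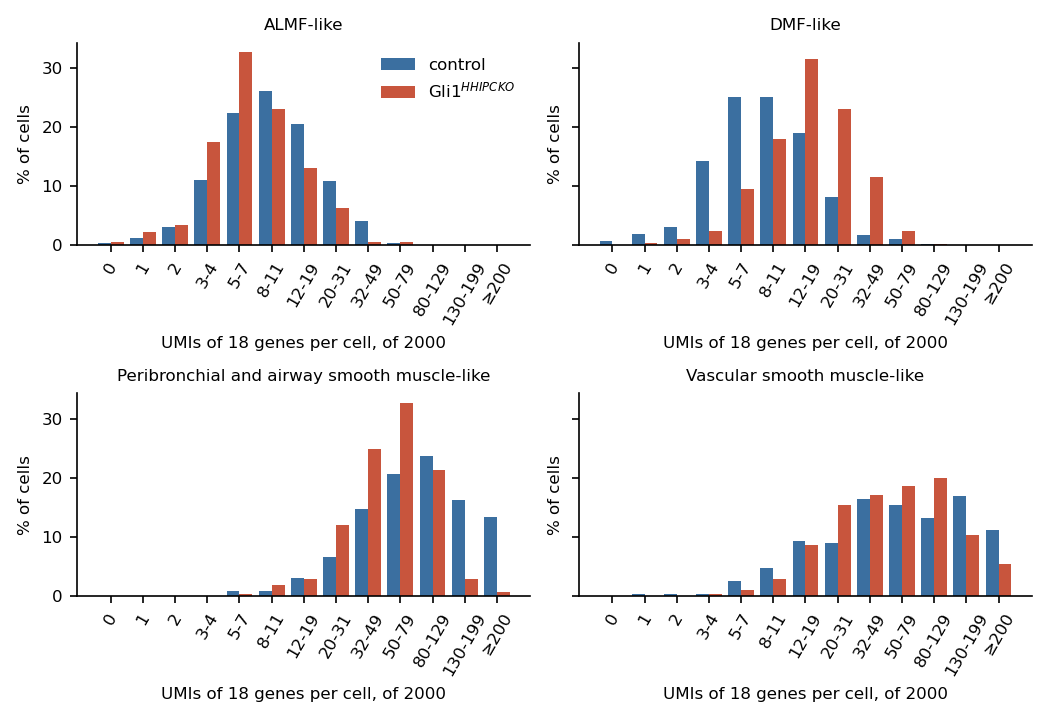
Percent of cells by the number of UMIs of the 18 restricted genes per cell, each cell thinned to 2000 UMIs, in 4 classes and both libraries. The *Gli1 HHIPCKO* bars are moved to the right in DMF-like cells (median 16 against 8 UMIs) and to the left in the peribronchial and airway smooth muscle-like class (57 against 85).

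Immediate early genes, which rise during tissue dissociation, were followed as a check. In myofibroblast-like cells as a whole their sum was 8586 CPM in the control and 12090.0 CPM in the *Gli1 HHIPCKO* library. Within DMF-like cells it was 3890.0 and 3521 CPM and in the peribronchial and airway smooth muscle-like class 10002 and 10462 CPM. Unresolved cells, of which cluster 4 was led by *Fos*, *Junb* and *Egr1*, had 25455 and 18288 CPM. In unresolved cells the restricted genes had 6479 and 6827 CPM, a log2 ratio of 0.08.

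The 96 further contraction genes, in 5 lists, were counted in the same way. In DMF-like cells 9 of 66 measured genes were higher (6.61% of all genes) and 2 lower (4.83%), with 10 of the 66 measured through 1 library only. In the peribronchial and airway smooth muscle-like class 5 of 70 were higher (11.7% of all genes) and 11 lower (7.27%), 2 of the 70 through 1 library only. In the vascular class 9 of 66 were higher (7.44% of all genes) and 1 lower (4.41%), 5 of the 66 through 1 library only. The counts of single lists below stand beside the same 6.61% and 4.83% of all genes in DMF-like cells. Described are 4 of the lists, and the genes named are among the 2 highest and 2 lowest ratios of each list in DMF-like cells, with some of these left out.

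Of the SRF partners and smooth muscle transcription factors, 2 of 11 were higher and 2 lower in DMF-like cells, with 4 of the 11 measured through 1 library only. *Fhl2*, a cofactor that binds SRF, rose from 10.3 to 37.9 CPM (log2 ratio 1.87, 1.31 to 2.47), and *Mef2c*, a muscle transcription factor, from 68.5 to 122 CPM (0.83). *Fhl2* was measured through the *Gli1 HHIPCKO* library only (2.76% and 10.7% of cells). *Gata6*, measured through the control only, fell from 51.4 to 26.9 CPM (−0.94) and *Mef2a* from 398 to 256 CPM (−0.64). In the peribronchial and airway class *Gata6* was lower as well, 63.8 and 37.7 CPM (−0.76, −1.45 to −0.07), again measured through the control only.

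Among calcium and potassium channels and pumps 1 of 7 was higher and 0 lower in DMF-like cells. It was *Itpr1*, the receptor that releases calcium from stores, at 65.4 and 113 CPM (log2 ratio 0.79). *Cacna2d1* (0.56), *Trpc1* (0.04) and *Cacna1c*, the L-type calcium channel (−0.01), were within 1.5-fold, *Trpc1* measured through the *Gli1 HHIPCKO* library only. Of the receptors for contracting and relaxing agonists 3 of 5 were higher and 0 lower in DMF-like cells, with 2 of the 5 measured through 1 library only, and the one with the highest ratio is left out here. *Ednrb*, an endothelin receptor, went from 95.6 to 201 CPM in DMF-like cells (1.07), with *Ednra* at 0.14. *S1pr3*, a sphingosine-1-phosphate receptor, had a log2 ratio of 0.44 in DMF-like cells and rose in vascular smooth muscle-like cells from 17.8 to 108 CPM (2.60, 1.93 to 3.34). In both classes it was measured through the *Gli1 HHIPCKO* library only, and in the vascular class 4.44% and 16.5% of cells held a UMI.

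In the list of further actin cytoskeleton and anchoring genes 3 of 28 were higher and 0 lower in DMF-like cells, with 3 of the 28 measured through 1 library only. *Nexn* (nexilin, an actin-binding protein) rose from 33.8 to 90.2 CPM (log2 ratio 1.42), measured through the *Gli1 HHIPCKO* library only (8.20% and 22.5% of cells). At the other end, *Actb*, the cytoplasmic actin, was at 3499 and 2763 CPM (−0.34), opposite to *Acta2* in the same cells, and *Pdlim2* had a ratio of −0.31. In the muscle classes *Actb* had ratios of −0.27 and −0.44, on the same side as the muscle actins.

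The promoters of the members were searched for the CArG box, the motif that SRF binds. RefSeq promoters on GRCm38.p6 were at hand for 32 of the 36 members, without *Actg2*, *Myh11*, *Tagln* and *Myocd*. In the 250 bases before the start, 6 of the 32 members held a match on either strand (18.8%), against 439 of 27025 genes (1.62%). The 6 were *Actc1*, *Cnn2*, *Myl6*, *Myl9*, *Srf* and *Vcl*. Of these, *Actc1* and *Srf* fell in the peribronchial and airway smooth muscle-like class and the other 4 did not reach 1.5-fold there. A match is a description of the letters and not a site in use. Each match reads CC, 6 letters of A or T, and GG, and forms that differ from this were not marked. A gene without a match, *Acta2* among them, may thus still hold a variant of the box. The windows of *Actc1* (match 47 bases before the start), *Srf* (82 and 62 bases before) and *Myl9* (161 bases before) are shown because they carry the motif in an actin, in the factor itself and in a light chain, with the matches in capitals.
Actc1, chr2:114052876-114053125, minus strand: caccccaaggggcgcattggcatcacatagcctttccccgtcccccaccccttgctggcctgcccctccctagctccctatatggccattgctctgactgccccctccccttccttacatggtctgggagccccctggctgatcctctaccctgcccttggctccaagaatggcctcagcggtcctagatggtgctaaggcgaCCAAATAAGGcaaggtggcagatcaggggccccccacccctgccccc
Srf, chr17:46556163-46556412, minus strand: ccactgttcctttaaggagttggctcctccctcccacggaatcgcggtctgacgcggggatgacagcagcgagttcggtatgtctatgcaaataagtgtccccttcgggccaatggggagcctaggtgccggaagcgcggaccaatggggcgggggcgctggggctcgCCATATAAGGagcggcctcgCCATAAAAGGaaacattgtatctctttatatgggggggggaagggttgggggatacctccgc
Myl9, chr2:156775214-156775463, plus strand: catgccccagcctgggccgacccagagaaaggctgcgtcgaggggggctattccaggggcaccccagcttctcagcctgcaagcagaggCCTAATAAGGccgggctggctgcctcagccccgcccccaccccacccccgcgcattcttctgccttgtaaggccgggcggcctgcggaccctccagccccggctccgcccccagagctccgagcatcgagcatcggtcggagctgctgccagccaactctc

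By position, the members lie on many chromosomes, with *Lmod1* (chr1:135324807-135368065), *Csrp1* (chr1:135720061-135752232) and *Tnnt2* (chr1:135836354-135852260) close together on GRCm38, all on the plus strand. These neighbors differed in the peribronchial and airway smooth muscle-like class, with log2 ratios of −0.51, −0.47 and −2.24 in that order.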

How the data were processed

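The authors mapped the reads to mm10 with Cell Ranger (6.1.0 in the file headers, 3.1.0 in the submitters' notes) and deposited raw counts of called cells, which were used here. Cells were kept with 200 to 6000 genes and no more than 10% mitochondrial UMIs. The libraries were merged without integration (2000 variable genes, 30 components, 20 neighbors, Leiden resolution 1), and mesenchymal clusters were clustered again. Naming thresholds were set after the clusters were seen. Unnamed clusters held 1091 control cells (9.99%) and 1587 *Gli1 HHIPCKO* cells (13.1%). No doublet caller was used outside an alternative. The members and lists were chosen with earlier results of these data known. The genes named are all 36 members, *Hhip*, *Xist* and genes among the 2 highest and 2 lowest measured in DMF-like cells of 4 contraction lists, some of which are left out. Genes that lead a marker list or a cluster and a paralogue (*Myl12b*) are named beside them. Sums, ratios and thinning were tested on simulated data. Software was scanpy 1.11.5, igraph 0.11.9, scikit-learn 1.9.0, numpy 2.4.6, scipy 1.17.1, pandas 2.3.3 and matplotlib 3.10.9 under Python 3.11.15.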

Additional observations from a re-analysis of the deposited data

Results flagged for a closer look

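In 4 genes the ratio lay at least 1.5-fold up in DMF-like cells and at least 1.5-fold down in a muscle class, opposite directions in different cells of the same mice. Against the peribronchial and airway smooth muscle-like class this held for 4 of 32 members and 14 of 4979 genes measured in both classes (0.281%), and against the vascular class for 2 of 32 members and 5 of 4586 genes (0.109%). The log2 ratio of *Actg2* in DMF-like cells exceeded that in the peribronchial and airway smooth muscle-like class by 3.01 and that in vascular smooth muscle-like cells by 2.98. For *Cnn1* the same differences were 3.66 and 2.77. Against the peribronchial and airway class, *Tpm2* differed by 1.39 and *Myocd* by 1.79. These differences were not tested. *Actg2*, *Cnn1* and *Myocd* passed the minimum share of DMF-like cells through the *Gli1 HHIPCKO* library only, and *Tpm2* passed it in both. *Actg2* and *Cnn1* are also the 2 members counted against the vascular class. This rule favors genes that differ between the libraries, and no count over genes that passed in both was made. No excess of members over all genes is therefore read from these counts.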

How the results depend on the processing

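No paired analysis was possible because each group holds 1 mouse. All counts below are members past 1.5-fold, in the order higher or lower as named, and the cause of each change was not tested. They stand without the share of all genes under the same setting, so no excess of members is read from them.

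In DMF-like cells 10 members were higher under the settings reported, and this count stayed between 7 and 13 under all alternatives that gave a value. Among the 10, *Actg2*, *Cnn1*, *Lmod1*, *Synpo2* and *Myocd* passed the minimum share through the *Gli1 HHIPCKO* library only. The 1 lower member became 2 without doublets, 0 by thinned shares, 6 at resolution 0.5 and 2 among all genes with at least 50 UMIs. In the peribronchial and airway smooth muscle-like class 11 lower members became 7 by thinned shares and 7 at a fold of 2, and the count of lower members ranged from 7 to 16. In vascular smooth muscle-like cells 6 lower members became 3 by the mean over cells, 1 by thinned shares and 0 at a fold of 2. Each library clustered on its own gave no value for the DMF-like and the peribronchial class, and resolution 0.5 gave none for the latter.

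In myofibroblast-like cells 2 lower members became 1 with the other total (where 8 were higher against 1 lower), 1 without the 5% of cells richest in restricted genes, 1 with genes centered within libraries, 1 with immediate early genes held out, 1 with unnamed clusters given a class, 5 with the AT2-like level subtracted, and 0 by thinned shares, at resolution 0.5, at a fold of 2 and with libraries clustered separately. In ALMF-like cells 1 higher member became 0 with the stricter filter, the AT2-like level subtracted, resolution 2, separate libraries and a fold of 2, and 2 without doublets or without immediate early genes. There 3 lower members became 1 by thinned shares and at resolution 2, 7 after subtraction and 0 at a fold of 2.

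In pericyte-like cells 3 lower members became 1 by thinned shares and at resolution 0.5, 0 with members kept in clustering and at a fold of 2, 9 with separate libraries and 5 among all genes with 50 UMIs. In alveolar fibroblast-like cells 3 higher members became 5 without doublets, without the richest cells, with centered genes and with members kept in clustering, and 0 at a fold of 2. There 0 lower members became 1 with the stricter filter, subtraction or separate libraries and 4 among all genes with 50 UMIs. In adventitial fibroblast-like cells 2 higher members became 1 without a cell filter, at resolution 2, at a fold of 2 and for cells named alike in both rounds, 4 after subtraction or with members kept in clustering, and 7 with separate libraries. There 1 lower member became 0 by the mean over cells, with centered genes, with separate libraries and at a fold of 2, 2 without the richest cells, and 3 after subtraction or among all genes with 50 UMIs. In mesothelial-like cells 0 higher members became 1 without a filter, with the stricter one, by thinned shares, after subtraction, at resolution 0.5, with centered genes, with immediate early genes held out and with separate libraries, and 8 lower members became 1 by thinned shares, 5 without the richest cells and 3 at a fold of 2.

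Of single genes, 4 called values changed sign. By thinned shares in mesothelial-like cells *Acta2* was at 0.31, *Myh11* at 0.0875 and *Myl9* at 0.00503, and *Hspb1* in ALMF-like cells was at −0.26 with separate libraries. Other values of single genes moved beyond their counting interval in 689 cases and did not in 3553. The alternatives with cells named alike in both rounds, without the cluster led by immediate early genes and with unnamed clusters given a class were chosen after seeing the data. Depth limits the sparse genes, *Srf*, *Myocd*, *Tnnt2* and *Pln*.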

Other observations

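In cells named red cell-like, 219 in the control and 201 in the *Gli1 HHIPCKO* library, the 18 restricted genes summed to 715 CPM (668 to 764) and 2035 CPM (1954 to 2118), a log2 ratio of 1.51. The 18 broad genes (2428 and 3991 CPM, log2 ratio 0.72) and the immediate early genes (2248 and 3576 CPM, 0.67) were higher there too, so the rise was not particular to the restricted genes. The cause was not tested.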
